A study of Canis lupus familiaris with 10 samples.

Results

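miR-221 and miR-222 (cfa-miR-221 and cfa-miR-222 in the dog) were examined in small RNA sequencing of canine lymph nodes. They are 2 of the 320 miRNAs listed in the deposited counts, and were chosen by name for their shared gene locus, without use of their values. Both had at least 1928 reads in each of the 10 libraries and passed the filter on low counts, which left 247 miRNAs to test. The samples were fresh-frozen lymph nodes of 6 dogs with diffuse large B-cell lymphoma (DLBCL1 to DLBCL6) and of 4 healthy dogs (Healthy2 to Healthy5), with 1 library per dog. Dogs with DLBCL were patients of both sexes and several breeds whose affected peripheral node was sampled surgically under anesthesia, and their ages are not given in the sources used here. Healthy dogs were purpose-bred hound crosses, all female and all under 1 year old, which were euthanized in teaching courses. Breed and the way of sampling therefore cannot be told apart from the diagnosis. Sex overlaps in part, since some patients were also female, but the labels used for grouping give no sex, and its part was not tested.

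miRNAs are short RNAs that guide Argonaute proteins to partly complementary sites in messenger RNAs and lower the output of these messages. miR-221 and miR-222 are made from neighbouring hairpins on the X chromosome, are commonly described as products of 1 primary transcript, and carry the same seed, so that they share most predicted targets. Known targets in other species include CDKN1B and CDKN1C, which encode the cyclin-dependent kinase inhibitors p27 and p57, and KIT, the receptor of stem cell factor. Their expression is known from endothelium, from blood progenitors, where it declines as red cells mature, and from activated lymphocytes, and in human DLBCL raised miR-221 has been associated with the activated B-cell type. In the canine annotation of UU_Cfam_GSD_1.0, each miRNA has 1 gene, MIR221 and MIR222, both on chromosome X with 0 other genes between them and both inside the long noncoding RNA gene LOC111094885. The counts name no arm of either hairpin.

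Between 10686441 and 25784861 reads per DLBCL library and between 30432969 and 34709421 per healthy library were counted on miRNAs. miR-148a alone took 17.8% to 39% of them in DLBCL and 51.5% to 73.6% in healthy nodes, so levels are given as CPM, the count per 1000000 reads of the library size after adjustment with edgeR's TMM factors. miR-142, which marks cells of the blood lineages, measured 4234 to 7521 CPM in DLBCL and 3382 to 5461 CPM in healthy nodes, whereas the 6 epithelial miRNAs together summed to 10.6 to 127 CPM, most of it miR-200c and highest in DLBCL3. The read statistics of the study list a higher percentage of bases at Q30, a measure of base-call quality, for DLBCL1, DLBCL2, DLBCL3 and DLBCL5 than for DLBCL4, DLBCL6 and the 4 healthy libraries. These sets are referred to as higher Q30 and lower Q30, and only the lower Q30 group holds both conditions.

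The level of miR-221 was close in both groups on average, but more scattered among the tumors. In healthy nodes it measured 189 CPM in Healthy2, 275 CPM in Healthy3, 265 CPM in Healthy4 and 293 CPM in Healthy5, a mean of 255 ± 46 CPM (SD, n = 4). In DLBCL it was lowest in DLBCL5 at 126 CPM, had a median of 197 CPM and was highest in DLBCL4 at 445 CPM, with a mean of 245 ± 133 CPM (SD, n = 6). DLBCL3 and DLBCL6, at 150.2 and 141 CPM, also lay below every healthy library, DLBCL1 at 364 CPM lay above every one, and DLBCL2 at 244 CPM lay among them. The tumors thus fell on both sides of the healthy range. These values come from 1928 to 12619 reads per library, and miR-221 ranked between 67 and 96 by reads among the 320 miRNAs of each library.

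For miR-222 the mean was higher in DLBCL, and this mean was set by a few libraries. It measured 445 CPM in Healthy2, 583 CPM in Healthy3, 613 CPM in Healthy4 and 294 CPM in Healthy5, a mean of 484 ± 146 CPM (SD, n = 4). In DLBCL it ranged from 164 CPM in DLBCL6, below every healthy library, to 2416 CPM in DLBCL3, with a median of 722 CPM and a mean of 1043 ± 831 CPM (SD, n = 6). DLBCL1 came next to the highest with 1657 CPM, while DLBCL5, DLBCL4 and DLBCL2 measured 729, 715 and 580.5 CPM. Of these, DLBCL2 lay within the healthy range and DLBCL4 and DLBCL5 just above it. The lowest and the highest tumor differed 14.7-fold, against 2.09-fold among the healthy nodes. The values rest on 6611 to 51321 reads per library, and the rank of miR-222 ran from 36 in DLBCL3 to 90 in DLBCL6.

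**Figure D1:**
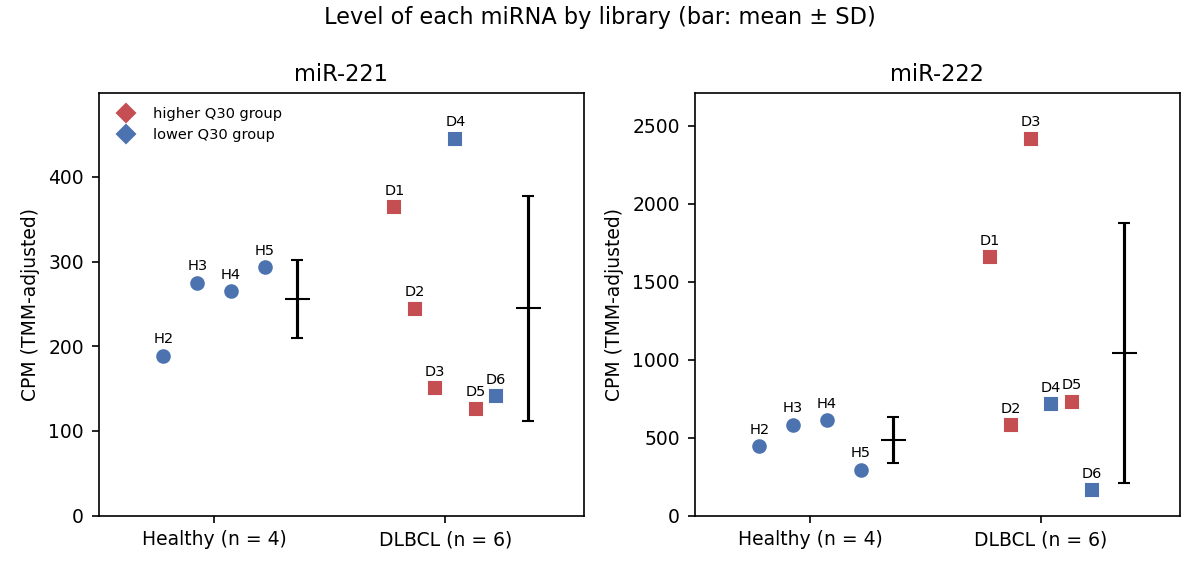
Level of miR-221 (left) and miR-222 (right) in CPM, on linear axes that start at 0, for each healthy (H2 to H5) and DLBCL (D1 to D6) library, colored by Q30 group, with the mean and SD of each group as a bar. The tumors surround the healthy nodes for miR-221 (126 to 445 against 189 to 293 CPM), and D1 and D3 stand above the rest for miR-222, at 1657 and 2416 CPM.

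Neither miRNA was a DEM, a differentially expressed miRNA by the thresholds of the study, which are 0.05 for the adjusted p and 2 for the fold change in either direction. Of the 247 miRNAs tested, 5.67% were DEMs. miR-221 had a log2 fold change of -0.06 between DLBCL and healthy nodes (standard error 0.45, adjusted p = 0.946 from edgeR's quasi-likelihood test), and the 95% interval of its fold change ran from 0.49 to 1.88. miR-222 had a log2 fold change of 1.11, or 2.16-fold (standard error 0.62, unadjusted p = 0.0993 and adjusted p = 0.254 from edgeR), with a 95% interval from 0.846-fold to 5.5-fold. Ordered by log2 fold change from the highest, miR-222 stood at place 64 and miR-221 at place 143 of the 247, whose median was 0.13. For both miRNAs the CPM of the groups overlapped, as it did for most of the miRNAs tested (13% did not overlap). In such bulk samples, fewer cells of a type and less RNA per cell cannot be told apart.

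Among the tumors, the mean level of miR-222 was 1345 CPM in the higher Q30 group (n = 4) and 439.5 CPM in the lower (n = 2). The ranges overlapped, this difference was not tested, and the higher Q30 group holds no healthy library to compare with. The higher Q30 tumors measured 580.5 to 2416 CPM, and the lower Q30 tumors, DLBCL6 and DLBCL4, 164 and 715 CPM. Within the lower Q30 group, which sets these 2 tumors against the 4 healthy nodes, edgeR put the log2 fold change at -0.15 ± 0.56 (standard error), with an adjusted p = 0.863, and with the Q30 group as a covariate it was -0.14 (standard error 0.70, adjusted p = 0.93 from edgeR). Leaving out DLBCL3 lowered it to 0.73 and leaving out DLBCL6 raised it to 1.37, neither of them a DEM. For miR-221 the corresponding values were 0.19 within the lower Q30 group and 0.20 with the covariate. The scaling mattered as well, because scaling by total miRNA reads, the scale of the deposited TPM values, moved the median change of the tested miRNAs from 0.13 to 0.82 in log2. miR-221 then had a log2 fold change of 0.70 and miR-222 one of 1.63, which relative to that median were -0.12 and 0.81, against -0.19 and 0.98 with TMM.

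**Figure D2:**
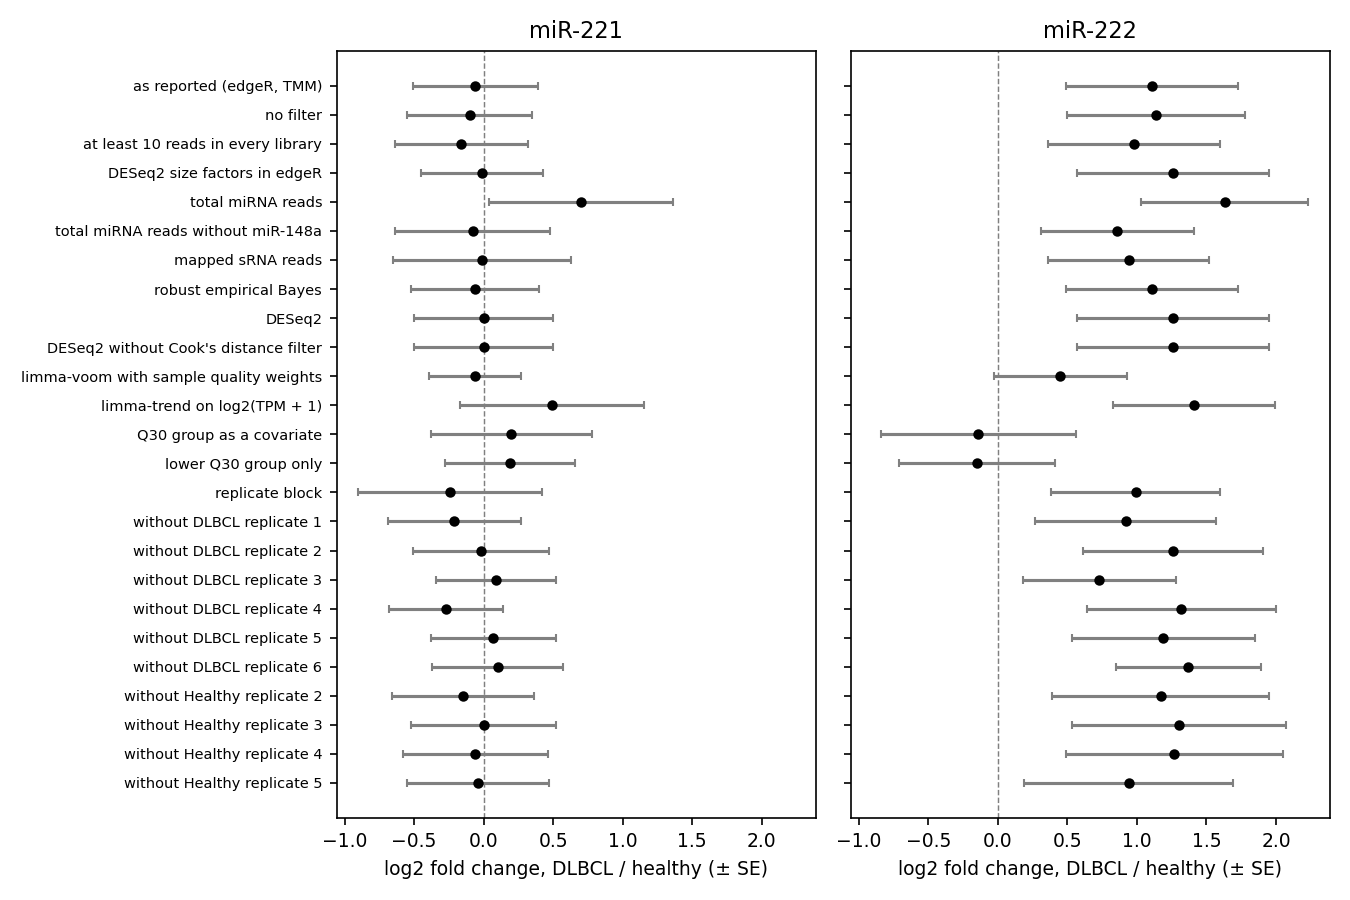
Log2 fold change between DLBCL and healthy nodes, with its standard error, for miR-221 (left) and miR-222 (right) under each processing alternative, named on the vertical axis. Points of miR-221 lie on both sides of 0 (-0.27 to 0.70), and those of miR-222 lie above 0 except with the Q30 group as a covariate and within the lower Q30 group, at -0.14 and -0.15.

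The ratio of miR-222 to miR-221 reads within a library needs no scaling between libraries, and it asks whether the members of the pair changed to a different extent. Reads of the 2 miRNAs are whole mature molecules, so no correction for length applies, but ligation and amplification can favor 1 sequence over another, and the ratio is therefore compared between libraries and not read as a ratio of molecules. It was 2.36 in Healthy2, 2.12 in Healthy3, 2.32 in Healthy4 and 1.0 in Healthy5. Healthy5 held 10002 reads of miR-221 and 10023 of miR-222, and miR-222 made up 50.1% of the pair (Wilson 95% interval 49.4% to 50.7%), against 68% to 70.2% in the other healthy libraries. Among the tumors the ratio was 16.08 in DLBCL3, 5.80 in DLBCL5, 4.55 in DLBCL1, 2.38 in DLBCL2, 1.61 in DLBCL4 and 1.16 in DLBCL6. In DLBCL3, miR-222 held 94.1% of the pair (93.9% to 94.3%), and in DLBCL6 53.7% (52.8% to 54.6%). These intervals cover counting error only, and those of Healthy2, Healthy4 and DLBCL2 overlapped.

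On the log2 scale the ratio averaged 1.81 ± 1.39 (SD, n = 6) among tumors, against 0.89 ± 0.59 (SD, n = 4) among healthy nodes. The difference of 0.93 was smaller than the SD among the tumors. A two-sided exact permutation test of the group means over 210 splits gave p = 0.248, and its 95% interval for the difference ran from -0.71 to 2.72. A larger change of miR-222 than of miR-221 was therefore not shown, nor was an equal one. Without DLBCL3 the difference was 0.49, and without Healthy5 it was 0.63. All 4 libraries of the higher Q30 group, at ratios of 2.38 to 16.08, lay above all 6 of the lower group, at 1.0 to 2.36, although DLBCL2 and Healthy2 differed by less than their counting intervals. Within the lower Q30 group the difference was -0.44 (two-sided exact permutation test, p = 0.4), with both tumors between Healthy5 and the other healthy nodes. The part of base-call quality in the ratio was not tested.

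**Figure D3:**
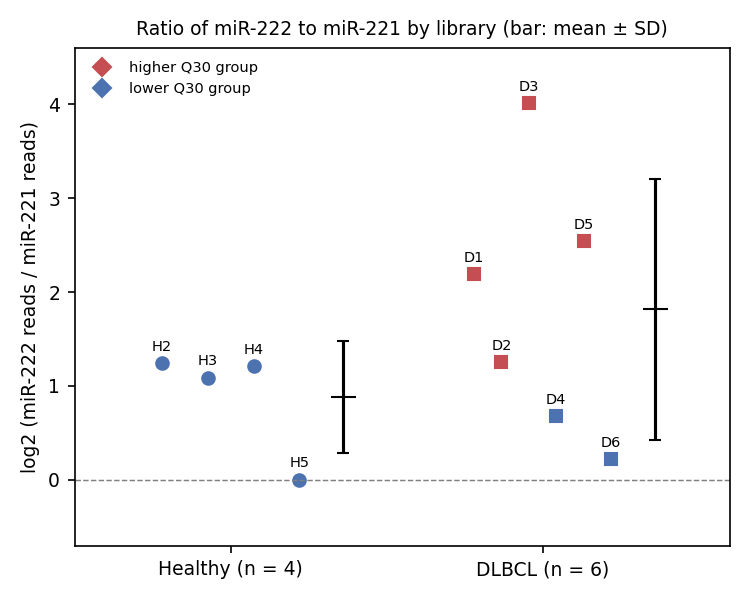
Log2 of miR-222 reads divided by miR-221 reads for each library, colored by Q30 group, with the mean and SD of each group as a bar and a dashed line where both have equal reads. H2, H3 and H4 lie close together (1.09 to 1.24) with H5 at 0.00, whereas the tumors spread from 0.22 in D6 to 4.01 in D3.

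Despite their shared locus, the members of the pair varied in different ways between dogs. DLBCL3 had the most miR-222 of all libraries and less miR-221 than any healthy node, and DLBCL5 had the least miR-221 of all with a miR-222 level above the healthy range. Both miRNAs were high in DLBCL1 and both were low in DLBCL6. Across the 6 DLBCL libraries, log2 CPM of the pair had a Pearson's r of 0.236 (exact permutation p = 0.647) and a Spearman's rho of 0.0857 (exact permutation p = 0.919), the single relation tested. Without DLBCL1 and DLBCL4, the libraries farthest from the median of miR-221, r was 0.0156. Leaving out 1 tumor at a time moved r between -0.16 (without DLBCL6) and 0.59 (without DLBCL3), and with 6 tumors a moderate relation could not be told from none. The 4 healthy libraries are too few for a correlation, but among them Healthy5 had the most miR-221 and the least miR-222.

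**Figure D4:**
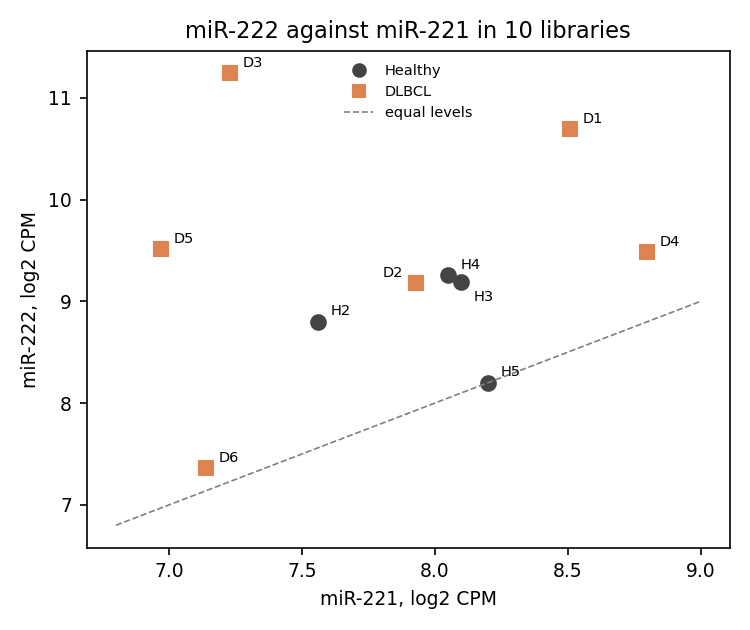
Log2 CPM of miR-222 (vertical) against that of miR-221 (horizontal) for the 4 healthy (circles) and 6 DLBCL (squares) libraries, with a dashed line of equal levels. The tumors do not follow a line (r = 0.236), and H5 and D6 lie on or near that of equal levels.

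The spread of this ratio was set beside that of 12 other pairs of miRNAs known to derive from neighbouring hairpins, some of which have further gene copies elsewhere. In DLBCL, the SD of the log2 ratio was 1.39 for miR-222 to miR-221, the fourth highest of the 13 pairs. Above it were miR-144 to miR-451 at 1.88, where miR-144 had as few as 2 reads, miR-143 to miR-145 at 1.51 and miR-216b to miR-217 at 1.46. At the other end were miR-183 to miR-182 at 0.28, miR-29b to miR-29c at 0.44 and miR-15a to miR-16 at 0.46. As a description over 10 libraries, the deviations of log2 CPM from the group means correlated with r = 0.21 for miR-221 and miR-222, against 0.99 for miR-183 and miR-182, 0.97 for miR-29b and miR-29c and 0.93 for miR-15a and miR-16. Of the 12 other pairs, 5 had lower values than miR-221 and miR-222, namely miR-192 and miR-194 (0.20), miR-424 and miR-503 (0.08), miR-143 and miR-145 (-0.03), miR-144 and miR-451 (-0.16) and miR-191 and miR-425 (-0.44), and the other 7 lay between 0.77 and 0.99.

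**Figure D5:**
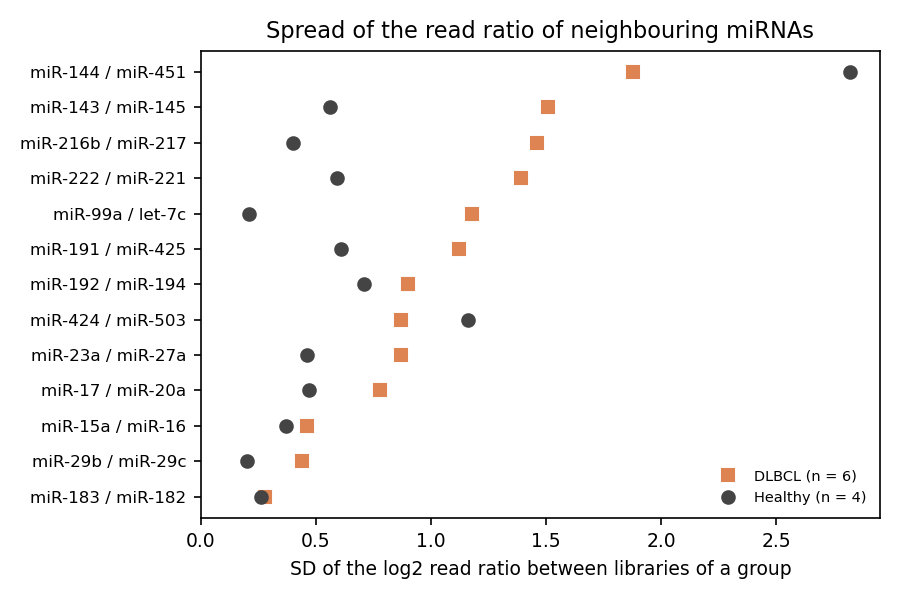
SD of the log2 read ratio between libraries of a group, for 13 pairs of neighbouring miRNAs in DLBCL (squares) and healthy nodes (circles). miR-222 to miR-221 (1.39 in DLBCL, 0.59 in healthy nodes) lies near miR-143 to miR-145 and far above miR-183 to miR-182 (0.28 and 0.26).

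The closest of the 247 miRNAs tested followed each member more closely than its partner did, which picking the highest of so many makes likely. By Pearson's r of log2 CPM over the 10 libraries, given as a description since all values share the libraries and their scaling, the 5 miRNAs most like miR-221 were miR-30c (r = 0.86), miR-223 (0.84), miR-98 (0.84), miR-26b (0.83) and miR-153 (0.68). miR-223 is a miRNA of myeloid cells, miR-98 belongs to the let-7 family, and both genes are also on the X chromosome. None of these 5 was a DEM, with log2 fold changes between -0.07 and 0.13 and adjusted p-values from edgeR of 0.84 or more, and miR-153 was near 5 CPM in either group. Those most like miR-222 were let-7a (r = 0.91), miR-7 (0.90), miR-182 (0.89), miR-183 (0.88) and miR-671 (0.84). Here the log2 fold changes ranged from 0.31 for let-7a to 3.68 for miR-183, without any DEM (adjusted p-values from edgeR between 0.109 and 0.569). In these orders, drawn from the 247 miRNAs tested, miR-222 came at place 108 for miR-221, and miR-221 at place 83 for miR-222, with r = 0.13. With the group means removed, miR-30c (0.89) stayed first for miR-221 and miR-7 (0.95) came first for miR-222, and the pair was at 0.21.

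For the pathway in which p27 and p57 act, 11 further miRNAs known to repress inhibitors of cyclin-dependent kinases were counted. They were miR-17, miR-20a, miR-20b, miR-106a, miR-106b and miR-93, which target CDKN1A, miR-25, miR-92a and miR-92b, which target CDKN1C, miR-24, which targets CDKN2A, and miR-181a, which targets CDKN1B. The counts name no arm of miR-17, and the PCR panel of the study lists miR-17-3p. In DLBCL miR-17 averaged 15.3 CPM, against 2949 CPM for miR-20a. Whether the counted arm of miR-17 is the one that targets CDKN1A is not known here. With edgeR, 0 of these 11 were DEMs, beside 5.67% of all miRNAs tested, while 9 had an unadjusted p under 0.05, beside 26.7% of all. DESeq2 called 5 of the 11, beside 17.2% of the 262 miRNAs to which it gave an adjusted p. The log2 fold change was above 0 for 10 of the 11, with a median of 1.61 beside 0.13 over all miRNAs tested. The largest changes were of scarce members, miR-92b at 0.981 against 0.208 CPM and miR-106a at 4.18 against 0.921 CPM, DLBCL against healthy. Among those with at least 10 reads in every library, the median was 1.16, beside 0.02 over all. The 11 are not separate observations, since some share a cluster, as miR-17, miR-20a and miR-92a do. miR-92a averaged 5676 ± 4280.3 CPM (SD, n = 6) over the tumors against 1620.1 ± 426 CPM (SD, n = 4) over the healthy nodes, and its log2 fold change was 1.81 (adjusted p = 0.0565 from edgeR). miR-24, at 3233 and 2997 CPM, had a log2 fold change of 0.11, and miR-181a, at 980.1 and 2762 CPM, one of -1.49 (adjusted p = 0.114 from edgeR). miR-222 at 1.11 was thus below the median of these miRNAs, and miR-221 at -0.06 was below all of them but miR-181a.

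Among 4 miRNAs known to repress KIT, 1 was a DEM (5.67% of all miRNAs tested were), miR-34a, which p53 induces and which averaged 295 ± 270.1 CPM (SD, n = 6) over the tumors against 18.4 ± 7.05 CPM (SD, n = 4) over the healthy nodes (log2 fold change 4.0, adjusted p = 0.0397 from edgeR). The other members were miR-193a, at 25 and 29.8 CPM, and the scarce miR-193b and miR-494, with log2 fold changes of -0.25, -1.64 and -1.06. Of 4 miRNAs tied to activated B cells and NF-kB, miR-146a fell. It averaged 10051 ± 1122 CPM (SD, n = 4) over the healthy nodes against 3659.9 ± 1493 CPM (SD, n = 6) over the tumors, with a log2 fold change of -1.46 (adjusted p = 0.0397 from edgeR). miR-155, the miRNA of the BIC transcript, averaged 7564 ± 4699 CPM (SD, n = 6) over the tumors against 5591 ± 1616 CPM (SD, n = 4) over the healthy nodes, and its log2 fold change was 0.44 (adjusted p = 0.568 from edgeR), and those of miR-21 and miR-146b were 0.11 and 0.95 (adjusted p = 0.859 and 0.286 from edgeR). The median of these 4 was 0.28, and 1 of them was a DEM. Neither call was stable at the adjusted p threshold: each was lost without DLBCL1, without DLBCL6 and without any 1 of the 4 healthy libraries. The adjusted p-values from edgeR then reached 0.16 for miR-34a and 0.144 for miR-146a. Each call was also lost under 5 of the 14 other settings. The directions held in all of these, and log2 fold changes ran from 2.68 to 5.01 for miR-34a and from -1.78 to -0.80 for miR-146a. By quantitative PCR, the study also reported miR-34a as higher and miR-146a as lower in DLBCL.

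The X chromosome holds 47 other listed miRNAs whose only genes lie there, of which 32 passed the filter. Of these, miR-363 rose (log2 fold change 2.14, adjusted p = 0.0397 from edgeR) and miR-504 fell (log2 fold change -1.72, adjusted p = 0.0397), which is 6.25% of those tested and close to the 5.67% over all miRNAs. Both calls were lost without DLBCL1 and without any 1 of the 4 healthy libraries, with adjusted p-values from edgeR of up to 0.144, and that of miR-504 also without DLBCL6 (adjusted p = 0.061 from edgeR). With the Q30 group as a covariate, the adjusted p-values from edgeR were 0.156 for miR-363 and 0.148 for miR-504. With the replicate number as a block, they were 0.18 and 0.338. Of the 14 other settings, 2 lost the call of miR-363 and 5 that of miR-504. For miR-504 these included total miRNA reads and mapped sRNA reads (adjusted p = 0.24 and 0.192 from edgeR) and limma-trend (adjusted p = 0.215). The median log2 fold change of the 32 was 0.32. The share near that of all miRNAs holds for edgeR. DESeq2 called 11 of the 47, beside 17.2% of the 262 miRNAs to which it gave an adjusted p. How many of the 47 had an adjusted p there is not given. The healthy dogs were all female and the patients were of both sexes, and the part of sex in these levels was not tested.

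Some markers of other cells also stood out in libraries in which the pair did. Summed over miR-451, miR-144 and miR-486 of red blood cells, the level was 24662 to 35567 CPM in the 4 higher Q30 tumors. These 4 also had the highest ratios of miR-222 to miR-221 among the tumors. The sum was 5171 CPM in DLBCL4 and 9429 CPM in DLBCL6, both lower Q30, and 808 to 1070.5 CPM in healthy nodes. DLBCL2 and Healthy2, with ratios of 2.38 and 2.36, had sums of 29459 and 1070.5 CPM. Of these 3 miRNAs, 2 were DEMs, miR-451 and miR-486, beside 5.67% of all tested. miR-451 was a DEM under each alternative run, while miR-486 was not without DLBCL1 or any 1 of the healthy libraries (adjusted p of up to 0.144 from edgeR). The call of miR-486 was also lost under 3 of 13 other settings. With the Q30 group as a covariate its log2 fold change was 1.84 (adjusted p = 0.348 from edgeR). The others were DESeq2 size factors in edgeR (adjusted p = 0.0511) and the replicate number as a block (adjusted p = 0.0514 from edgeR). The 13 settings leave out DESeq2 with its filter on outlying counts (Cook's distance). With that filter off, miR-486 was a DEM there (adjusted p = 1.3e-05 from DESeq2). Without DLBCL3 its log2 fold change in edgeR was 3.13, against 4.87 with all libraries. miR-126 of endothelium was 8.85 CPM in DLBCL3, the library with the most miR-222, 31.9 to 186 CPM in the other tumors and 94.3 to 399 CPM in healthy nodes, highest in Healthy5. miR-223 of myeloid cells was 88.3 CPM in DLBCL4, the library with the most miR-221, and 3.95 to 36.4 CPM in the other tumors, with 16.9 to 38.6 CPM in healthy nodes. The summed level of the stromal and smooth muscle miRNAs miR-143, miR-145, miR-199 and miR-214 was 18704 to 70595 CPM in DLBCL and 26787 to 55170.1 CPM in healthy nodes. Of these 4, 0 were DEMs in edgeR, beside 5.67% of all tested, and 0 in DESeq2, beside 17.2%. At an unadjusted p under 0.05 from edgeR there were 0, beside 26.7%. With 4 miRNAs, counts of 0 cannot be told from these shares. All 4 had log2 fold changes below 0, with a median of -0.52 beside 0.13 over all miRNAs tested. Of the 5 lymphoid and blood cell miRNAs, 1 was a DEM, beside 5.67% of all tested. This was miR-150, which fell (log2 fold change -2.97, adjusted p = 0.00687 from edgeR, and 0.0551 without Healthy4). The others went both ways, with log2 fold changes of 0.22 for miR-142, 0.44 for miR-155, -0.77 for miR-342 and -1.49 for miR-181a. The 5 summed to 9138 to 22448 CPM in DLBCL and 14280.1 to 30138 CPM in healthy nodes. The 6 epithelial miRNAs summed to 127 CPM in DLBCL3 and to 10.6 to 26.5 CPM in the other libraries, and those of skeletal muscle to 352 CPM in DLBCL3 and to 8.82 to 76.1 CPM in the others. The parts of these cells in the levels of miR-221 and miR-222 were not tested.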

How the data were processed

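Small RNA of 10 lymph nodes was sequenced, 6 DLBCL and 4 healthy, with conditions and numbers taken from the labels. Adapter-trimmed reads had been aligned by the authors with Bowtie 0.12.9 (build CanFam3.1 in the processing notes), cleared of repeat and structural RNA tags, and assigned to known miRNAs by miRDeep2. The authors deposited raw read counts, not normalized, and TPM values, which equal counts per 1000000 miRNA reads (largest difference 4.55e-05). The mapping was not repeated.

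edgeR 4.0.16 in R 4.3.3 was run on the counts of all 10 libraries (TMM, default filter by group, quasi-likelihood test, Benjamini-Hochberg adjustment over 247 miRNAs). Standard errors are the log2 fold change divided by the square root of F. log2 CPM used a prior count of 2. DESeq2 1.42.0, limma 3.58.1, other filters and scalings, the Q30 group (threshold 97%) and each library left out were alternatives. The ratio and correlations were tested by exact two-sided permutation (Python 3.11.15, scipy 1.17.1). The edgeR and DESeq2 fits, but not the permutation tests, were also run on simulated counts, whose outcome is not given here. Libraries of 1 group were not duplicates (chi-squared per degree of freedom at least 2140). UU_Cfam_GSD_1.0 matched 315 of the 320 names and was used only for chromosomes and neighbours. Depth was 10686441 to 34709421 miRNA reads. Named miRNAs were the pair, miR-148a, the members of 4 lists (CDK inhibitor repressors, KIT repressors, activated B cell and NF-kB, X-linked) and of the cell type markers, 12 neighbour pairs and the 5 most alike. The members, lists and tests were chosen with earlier results of these data known.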

Additional observations from a re-analysis of the deposited data

Results flagged for a closer look

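Healthy5 stood apart from the other healthy nodes in the log2 ratio of miR-222 to miR-221, at 0.00 against 1.09 to 1.24, a gap of 0.877 of the group's range where 0.829 is the limit for 4 samples. It was flagged as a sample far from the others of its group. It had the highest miR-221 and the lowest miR-222 of the healthy nodes, at 293 and 294 CPM, and neither level alone passed that limit. Of 6 sets of values checked in this way, chance flags about 1 in 20.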

How the results depend on the processing

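Neither miRNA was a DEM under the 14 other settings or without any of the 10 libraries, and the adjusted p-values ranged from 0.491 to 0.998 for miR-221 and from 0.0877 to 0.93 for miR-222. The log2 fold change of miR-221 turned from -0.06 to 0.70 with total miRNA reads, 0.49 with limma-trend, 0.20 with the Q30 covariate and 0.19 within the lower Q30 group, and ran from -0.27 (without DLBCL4) to 0.10 (without DLBCL6) with 1 library left out, positive also without DLBCL3 and DLBCL5. That of miR-222 turned to -0.14 with the covariate and -0.15 within the lower Q30 group, was 0.45 with limma-voom, and ran from 0.73 (without DLBCL3) to 1.37 (without DLBCL6) with 1 library left out. The difference in log2 ratio turned to -0.44 within the lower Q30 group, ran from 0.49 (without DLBCL3) to 1.25 (without DLBCL6), and was 0.20 (exact permutation p = 0.714) without DLBCL3 and Healthy5, a choice made after seeing the data. The correlation in DLBCL turned to -0.12 with mapped sRNA reads and ran from -0.16 (without DLBCL6) to 0.59 (without DLBCL3). The fits with the Q30 covariate and within the lower Q30 group compare the same tumors with the healthy nodes. The causes of these changes were not tested.

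The 14 DEMs became 8 with DESeq2 size factors in edgeR, 23 with total miRNA reads, 7 with mapped sRNA reads, 45 in DESeq2 or 49 there with Cook's filter off, 46 with limma-voom, 7 with the Q30 covariate and 46 within the lower Q30 group. With 1 library left out their number lay between 1 (Healthy4 left out) and 23 (DLBCL4 left out), and it was 3 without DLBCL1, 22 without DLBCL3, 2 without Healthy2, 5 without Healthy3 and 6 without Healthy5. The median log2 fold change of the CDK inhibitor repressors was 2.29 with total miRNA reads and 1.16 with at least 10 reads in every library. For the KIT repressors these medians were 0.20 and 1.75, and for the X-linked list 1.10 and 0.09. That of the activated B cell list was 0.86 with total miRNA reads, -0.29 with the covariate and -0.30 within the lower Q30 group. These list medians, and the calls of single list members without a library or under another setting, were added after seeing the data.

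Fitted with a block for the replicate number, 1 miRNA was a DEM, the log2 fold changes were -0.24 for miR-221 and 0.99 for miR-222, and the paired difference in log2 ratio was 1.23 (exact permutation p = 0.375). The correlations of deviations between same-numbered libraries were 0.26, -0.01, -0.30 and -0.33, and 1 of 4 DLBCL libraries correlated best with its own number. These values show no pairing by number, though 4 numbers are too few to tell.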
